A study of Mus musculus with 16 samples.

Results

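The genes described here are 10 of the core genes of glycolysis, taken by symbol from the 46983 genes of the count table: the glucose transporter gene Slc2a1, the enzyme genes Hk2, Gpi1, Aldoa, Tpi1, Gapdh, Pgk1, Eno1 and Pkm, and the lactate dehydrogenase gene Ldha. All 10 passed the filter on low counts, as did 12805 genes in all. The cells were 46C mouse ESCs, a single line from strain 129Ola mice that expresses Sox1-GFP, kept in an undifferentiated state with leukemia inhibitory factor. They were transfected with RAM siRNA or with a non-targeting control siRNA and harvested after 48 hr, so that every group carries the reporter and was exposed to a transfection reagent and, before lysis, to cycloheximide at 100 µg/ml for 10 min. From each culture, 10% of the cytoplasmic extract was kept as input, and sucrose gradient fractions 17 to 22 of the rest were pooled as polysomes. This gave 4 groups (input control, input RAM siRNA, polysome control and polysome RAM siRNA) of 4 replicates, or 16 libraries. The siRNA dose and reagent are described differently in the labels and in the methods of the study, and an siRNA lowers RAM without removing it. The supplement of the study names a single RAM siRNA for these replicates. Effects of less RAM and other effects of that siRNA therefore cannot be told apart.

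Glycolysis splits glucose into pyruvate in the cytoplasm and yields ATP without oxygen. Glucose enters through transporters such as GLUT1 (Slc2a1), is trapped by hexokinase and is cleaved by aldolase, and the lower enzymes then make NADH, ATP and pyruvate, which lactate dehydrogenase can turn into lactate. ESCs are known for a high rate of glycolysis, and many of these genes are known targets of the hypoxia factor HIF-1. RAM, encoded by Ramac, is the activating subunit of the cap methyltransferase RNMT, which methylates the guanosine cap of mRNA, and this cap is bound by the factor that starts most translation. The comparisons therefore ask whether glycolysis transcripts change in level, in the cytoplasm and in polysomes, with RAM siRNA.

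Between 16647523 and 20147833 reads per library were counted on genes, and each of the 10 genes had between 654 and 28137 counts in every library, so that counting error was small beside the differences between replicates. Ramac was lower in the RAM siRNA libraries, at 10.8 ± 0.608 CPM (counts scaled to the library size, which was corrected by TMM over all 16 libraries; SD, n = 4) in control input and 3.02 ± 0.233 CPM (n = 4) in RAM siRNA input. In polysomes it was 9.21 ± 3.69 CPM and 1.53 ± 1.09 CPM (n = 4 each). The log2 fold change was -1.83 in input (adjusted p = 6.61e-06, edgeR) and -2.58 in polysomes (adjusted p = 0.0949, and 5.18e-07 with the replicate block described below, edgeR). The 9 ESC markers listed summed to 4686 to 5029 CPM in control input and to 3943 to 4517 CPM in RAM siRNA input. The 6 neural markers summed to 71.6 to 83.6 and 77.8 to 91.9 CPM in the same groups, the 6 extraembryonic markers to 17.5 to 20.6 and 16.1 to 20.8 CPM, and the 6 fibroblast markers to 8.05 to 9.68 and 9.22 to 11.3 CPM. All 9 ESC markers had a lower fitted level in RAM siRNA input, and 3 of them (Nanog, Esrrb and Dppa5a) passed an adjusted p of 0.05 (edgeR), or 8 of them in the fit with the block. Of all tested genes, 12.9% passed in input without the block (7.14% higher and 5.81% lower) and 39.4% with it (20.6% higher and 18.7% lower). Neurog2, Dcx, Col3a1 and Lum had no count in control input. Of the markers of other cell types that passed the filter on counts, 1 of 4 neural markers was lower (Pax6, log2 fold change -0.50) and 1 of 3 extraembryonic markers was higher (Gata6, 0.61) in input, while 0 of 1 fibroblast marker passed (edgeR). With the block 1 neural marker was higher (Nes, 0.43) and 1 lower (Pax6), and 1 extraembryonic marker was higher (Gata6) and 1 lower (Eomes, -0.31). The part of the markers in the changes of glycolysis genes described below was not tested, and in libraries of whole cultures, fewer cells of a type and less RNA per cell cannot be told apart.

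On GRCm38 with the GENCODE annotation, the 10 genes lie at chr4:119108711-119137983 on the plus strand (Slc2a1), chr6:82725025-82774454 on the minus strand (Hk2), chr7:34201330-34230336 on the minus strand (Gpi1), chr7:126795234-126800751 on the minus strand (Aldoa) and chr6:124810586-124814296 on the minus strand (Tpi1). Gapdh is at chr6:125161715-125166467 on the minus strand, Pgk1 at chrX:106187100-106203699 on the plus strand, Eno1 at chr4:150236721-150248879 on the plus strand, Pkm at chr9:59656368-59679375 on the plus strand and Ldha at chr7:46841475-46855627 on the plus strand. None shares exon bases with another gene of the count table on its strand. Letters of the HIF-1 core motif, ACGTG, were looked for on both strands of RefSeq windows reaching from 250 bases before to 50 bases after each annotated start (GRCm38.p6). The motif was in at least 1 window of 7 of the 10 genes (Slc2a1, Hk2, Aldoa, Gapdh, Pgk1, Pkm and Ldha) and in 21.8% of the 27025 genes with a window. Its variant GCGTG was in windows of 4 of the 10 (Slc2a1, Gapdh, Eno1 and Ldha) and of 35.2% of all genes. Genes with more windows have more chances of a match: Aldoa and Eno1 had 3 windows each, and Pkm and Ldha had 2. Aldoa, Pkm and Ldha each had a window without ACGTG. Counted by window, ACGTG was in 19.6% of all 32851 windows. The 250 bases before the start are shown for Slc2a1, Hk2, Aldoa and Pgk1, the genes that changed in input with the replicate block (below) and hold ACGTG, and for Ldha, which had the most matches. They were chosen after the values were seen. Each is given 5′ to 3′ on the strand of the gene, and capitals mark ACGTG or its reverse complement CACGT. Where a gene has several windows, the one with the most matches is shown. The starts used for Slc2a1, Aldoa and Ldha lie inside the annotated gene.
Slc2a1 (chr4:119108495-119108744, plus strand): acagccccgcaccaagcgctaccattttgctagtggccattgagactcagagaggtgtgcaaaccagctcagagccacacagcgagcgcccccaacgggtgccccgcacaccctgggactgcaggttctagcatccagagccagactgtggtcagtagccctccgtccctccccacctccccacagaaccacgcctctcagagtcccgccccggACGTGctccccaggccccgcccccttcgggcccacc
Hk2 (chr6:82774455-82774704, minus strand): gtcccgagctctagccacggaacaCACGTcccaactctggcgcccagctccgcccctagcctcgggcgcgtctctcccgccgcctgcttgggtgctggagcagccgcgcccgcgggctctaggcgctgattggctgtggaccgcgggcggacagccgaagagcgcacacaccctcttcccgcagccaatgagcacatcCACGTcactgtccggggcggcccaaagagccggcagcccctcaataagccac
Aldoa (chr7:126799255-126799504, minus strand): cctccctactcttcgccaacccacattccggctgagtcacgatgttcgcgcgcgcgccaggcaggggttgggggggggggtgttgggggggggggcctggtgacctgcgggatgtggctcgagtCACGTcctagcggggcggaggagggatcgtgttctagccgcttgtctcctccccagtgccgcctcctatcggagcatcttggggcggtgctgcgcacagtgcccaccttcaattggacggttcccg
Pgk1 (chrX:106186850-106187099, plus strand): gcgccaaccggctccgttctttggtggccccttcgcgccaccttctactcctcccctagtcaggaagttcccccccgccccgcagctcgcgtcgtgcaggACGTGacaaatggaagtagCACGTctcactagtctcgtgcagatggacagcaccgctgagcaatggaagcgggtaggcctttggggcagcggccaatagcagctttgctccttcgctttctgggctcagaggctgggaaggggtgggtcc
Ldha (chr7:46845554-46845803, plus strand): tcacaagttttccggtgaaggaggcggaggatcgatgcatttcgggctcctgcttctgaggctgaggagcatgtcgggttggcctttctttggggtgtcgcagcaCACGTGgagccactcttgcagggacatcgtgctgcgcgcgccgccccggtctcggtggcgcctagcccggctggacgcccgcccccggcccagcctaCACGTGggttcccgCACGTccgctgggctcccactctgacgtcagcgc
The Slc2a1 stretch has its match 36 bases before the start. The Hk2 stretch has matches at 226 and 52 bases, the Aldoa stretch at 126 bases and the Pgk1 stretch at 150 and 131 bases before the start. In the Ldha stretch, 5 matches lie between 145 and 34 bases before the start, since the palindrome CACGTG reads as a match on each strand. A match describes letters and is no evidence of binding.

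In control input the 10 genes together took 0.309% ± 0.0238 (SD, n = 4) of the normalized counts. To compare genes, CPM was divided by the length of the main coding transcript of each gene. On this scale the level in control input was highest for Gapdh, the enzyme that makes the first NADH of the pathway, at 383.6 ± 50.8 CPM per kb (SD, n = 4). Aldoa followed at 259.5 ± 22.0 and Pkm, which encodes pyruvate kinase, at 226.4 ± 34.5 CPM per kb. Slc2a1 had 130.3 ± 11.1, Eno1 110.8 ± 12.1, Hk2 88.6 ± 4.40 and Gpi1 80.0 ± 4.70 CPM per kb. The lowest levels were those of Ldha at 56.8 ± 9.61, Pgk1 at 45.7 ± 6.46 and Tpi1 at 28.5 ± 4.02 CPM per kb. The libraries of neighbours in this order overlapped for Aldoa and Pkm, for Slc2a1 and Eno1, for Hk2 and Gpi1 and for Ldha and Pgk1, and the other neighbours did not overlap. The order depends on the transcript length used: per kb of all annotated exons, Aldoa at 134.7 CPM per kb came before Gapdh at 131.8. For Gapdh, Pgk1, Ldha, Tpi1, Aldoa and Eno1, 12 annotated copies elsewhere in the genome were found by symbol. Copies under other names were not looked for. How reads that map to several places were counted is not given in the sources used here, so that these levels are less certain.

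The cytoplasmic levels of the 10 genes differed little between the siRNAs and in no common direction. The fitted fold changes in input lay between 0.858 for Aldoa and 1.11 for Slc2a1. In the comparison of the 4 RAM siRNA with the 4 control input libraries, 0 of the 10 genes passed the threshold of 0.05 on the adjusted p (quasi-likelihood test of edgeR, Benjamini-Hochberg over all genes tested), where 12.9% of all tested genes passed (7.14% higher and 5.81% lower). At an unadjusted p under 0.05 there was 1, Aldoa, beside 3574 of the 12805 tested genes. DESeq2 also called 0 of the 10, where it called 15.4% of tested genes. The study was done on 4 independent occasions, and libraries with the same replicate number deviated from their group means together. The fits above leave this pairing out. In a fit that takes the replicate number as a block, 5 of the 10 genes passed, 1 higher and 4 lower, beside 39.4% of all tested genes (20.6% higher and 18.7% lower). Of the 10 genes, 2 were higher and 4 lower in all 4 same-numbered pairs, where 25.9% of all tested genes were higher and 24.6% lower in all pairs. The median log2 fold change of the 10 genes was 0.01 and that of all tested genes 0.003.

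Of the 10 genes, Slc2a1, the glucose transporter gene, was the 1 that rose in input with the block. It had 402.6, 392.9, 473.9 and 429.9 CPM in control input replicates 1 to 4 and 499.9, 407.8, 548.8 and 436.0 CPM in the RAM siRNA libraries. Each RAM siRNA library was above the control library of the same number, by more in replicates 1 and 3 than in 2 and 4, and the groups overlapped. The log2 fold change was 0.16 (SE 0.10, adjusted p = 0.355, edgeR) and with the replicate block 0.15 (SE 0.05, adjusted p = 0.0174). Without replicate 1 the block gave 0.10 (adjusted p = 0.177) and without replicate 3 it gave 0.13 (adjusted p = 0.101, edgeR). Hk2, which encodes the inducible hexokinase that phosphorylates glucose, went the other way. It had 491.7, 520.9, 477.5 and 464.3 CPM in control input and 444.7, 489.2, 430.8 and 416.1 CPM in RAM siRNA input. All 4 same-numbered pairs were lower, by 0.09 to 0.16 on the log2 scale. The log2 fold change was -0.13 (SE 0.08, adjusted p = 0.288, edgeR) and with the block -0.14 (SE 0.04, adjusted p = 0.0126), and without replicate 3 the adjusted p with the block was 0.0676. Gpi1, whose enzyme converts glucose 6-phosphate to fructose 6-phosphate, ranged from 217.7 to 249.6 CPM in control and from 232.3 to 275.9 CPM in RAM siRNA input. It was higher in all 4 same-numbered pairs, by 0.02 to 0.16 on the log2 scale, with a log2 fold change of 0.09 and an adjusted p of 0.0946 with the block (edgeR).

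Aldoa, whose product cleaves fructose 1,6-bisphosphate, had the largest change of the 10 in input. It had 375.6, 388.6, 364.3 and 439.7 CPM in control replicates 1 to 4 and 306.3, 310.5, 330.0 and 399.1 CPM in the RAM siRNA libraries. Every RAM siRNA library was below the control library of the same number, and replicate 4 was the highest of each group, so that the groups overlapped. The log2 fold change was -0.22 (SE 0.10, adjusted p = 0.162, edgeR) and with the block -0.22 (SE 0.04, adjusted p = 0.000421). With the block Aldoa passed whichever replicate was left out, with log2 fold changes from -0.19 to -0.25. Without the block it passed when the RAM siRNA library of replicate 4 was left out (-0.31, adjusted p = 0.0137, edgeR), when both libraries of replicate 4 were (-0.25, adjusted p = 0.0143), in replicates 1 and 2 alone (-0.31, adjusted p = 0.00256) and with no filter on low counts (-0.28, adjusted p = 0.0422).

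Pgk1 and Eno1, which act below the cleavage step, were also lower in all 4 same-numbered input pairs, as 24.6% of all tested genes were. Pgk1, whose enzyme makes the first ATP of the pathway, had 76.7, 73.1, 84.3 and 99.7 CPM in control and 70.2, 61.5, 72.2 and 92.7 CPM in RAM siRNA input, a log2 fold change of -0.17 (SE 0.05, adjusted p = 0.00412 with the block and 0.413 without, edgeR). Eno1, which encodes enolase, had 201.6, 212.6, 226.2 and 258.3 CPM in control and 169.4, 193.2, 221.4 and 245.5 CPM in RAM siRNA input, a log2 fold change of -0.12 (SE 0.04, adjusted p = 0.0341 with the block and 0.560 without, edgeR). In both genes replicate 4 was the highest library of its group and the groups overlapped. Eno1 no longer passed with the block when replicate 1 (adjusted p = 0.229) or replicate 2 (adjusted p = 0.119) was left out (edgeR).

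The other 4 genes of the lower steps did not pass in input in either fit. Gapdh had 520.9, 504.9, 500.7 and 652.2 CPM in control and 479.2, 495.8, 510.5 and 676.8 CPM in RAM siRNA input, with replicate 4 far above the other libraries of both groups, and its log2 fold change was -0.01 (SE 0.12). Pkm had 516.5, 532.5, 481.4 and 672.3 CPM in control and 551.2, 531.6, 542.3 and 760.1 CPM in RAM siRNA input. Its log2 fold change was 0.11 (SE 0.04) with an adjusted p of 0.0517 with the block (edgeR), the nearest of the 5 genes that did not pass, and without replicate 2 it passed (0.15, adjusted p = 0.0461). Tpi1, whose enzyme interconverts the triose phosphates, ranged from 38.9 to 54.4 CPM in control and from 37.9 to 57.4 CPM in RAM siRNA input. Ldha ranged from 83.3 to 120.8 CPM and from 77.6 to 130.6 CPM. The log2 fold changes of Tpi1 and Ldha were 0.04 and 0.05, with adjusted p-values of 0.882 and 0.868 (edgeR).

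**Figure D1:**
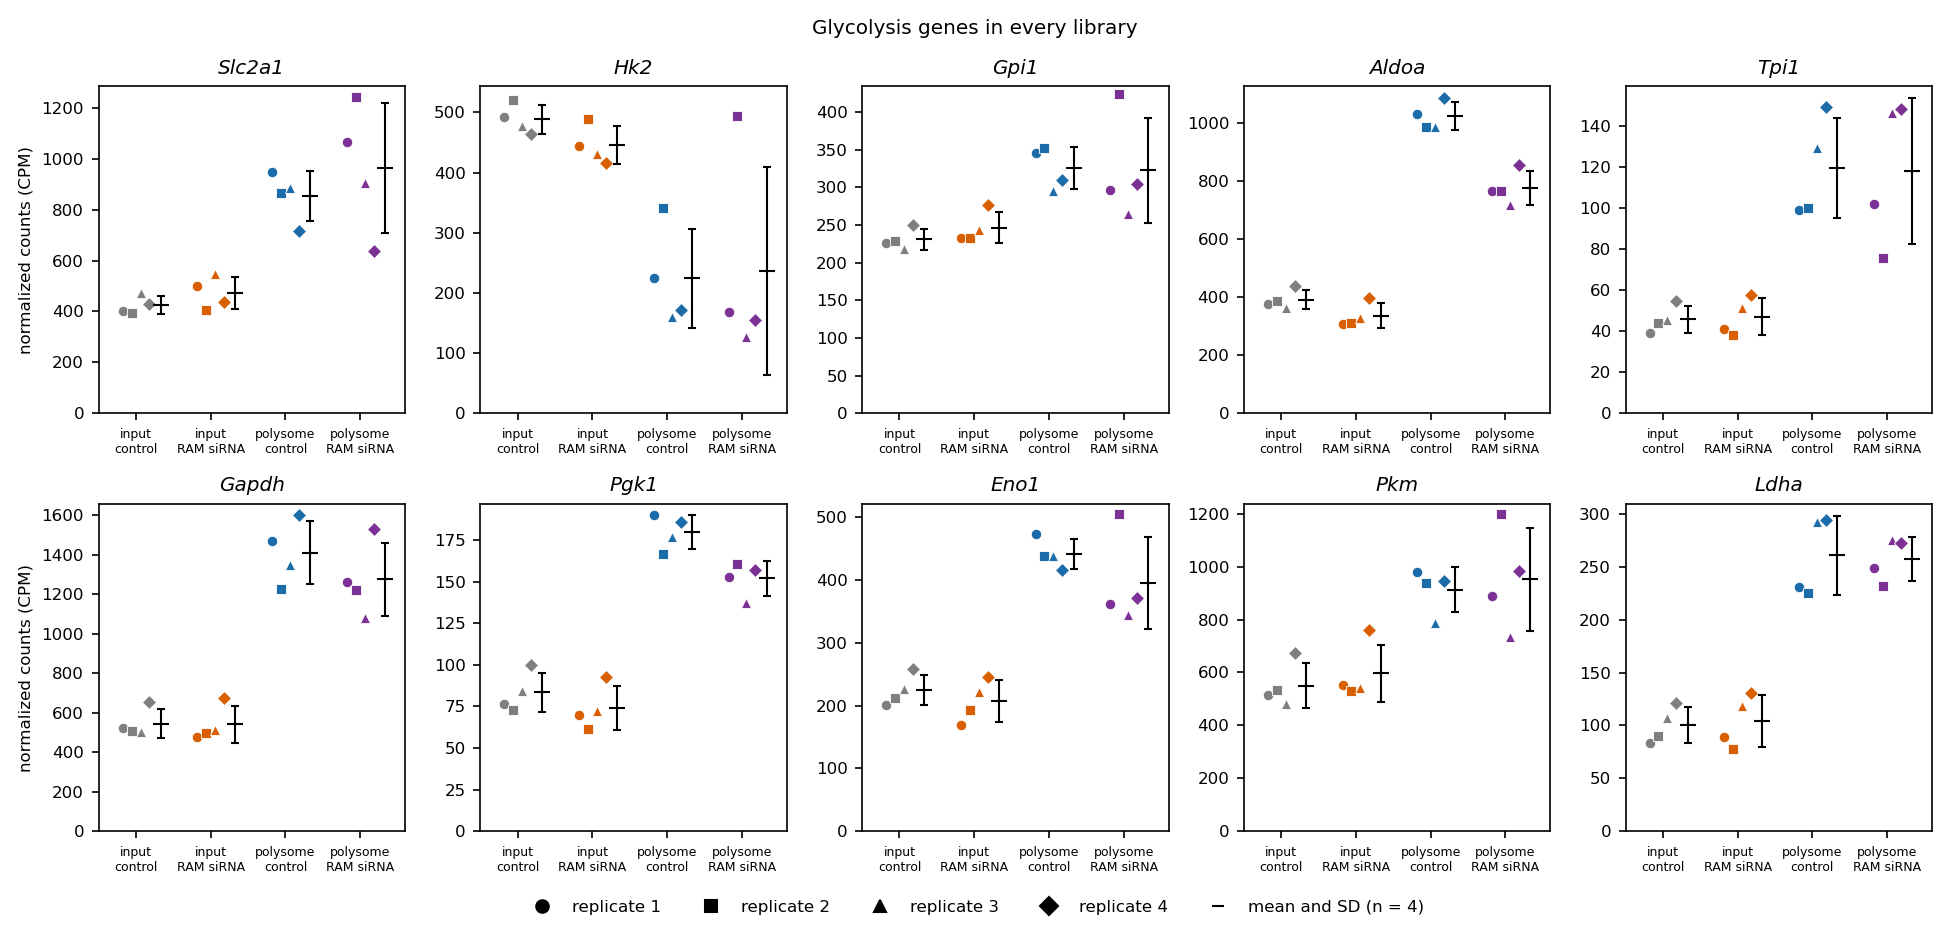
Normalized counts (CPM, vertical axes from 0) of the 10 glycolysis genes in each of the 16 libraries, by group, with 1 symbol per replicate and the mean and SD (n = 4) beside each group. In control cells the polysome libraries lay above the input libraries for every gene but Hk2, and Hk2 in polysome RAM siRNA replicate 2 stood at 494.7 CPM against 127.1 to 167.9 CPM in the other 3 libraries of its group.

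In polysomes, Aldoa was the gene with the largest difference and Hk2 the gene with the largest spread. Aldoa had 1033, 987.1, 986.6 and 1089 CPM in control polysomes and 766.0, 766.9, 716.8 and 857.7 CPM in RAM siRNA polysomes. The groups did not overlap, and all 4 same-numbered pairs were lower by 0.34 to 0.46 on the log2 scale. The fitted fold change was 0.759. The log2 fold change was -0.40 (SE 0.16, adjusted p = 0.480, edgeR) without the block and -0.40 (SE 0.12, adjusted p = 0.0298) with it. Pgk1 was the other gene whose groups did not overlap, with 190.4, 167.0, 176.9 and 185.8 CPM in control and 152.6, 160.9, 137.3 and 157.0 CPM in RAM siRNA polysomes. Its log2 fold change was -0.25 (SE 0.12) and its adjusted p 0.162 with the block (edgeR). Of all tested genes, 6.56% had groups that did not overlap in polysomes.

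Over the 10 genes, 0 passed in polysomes without the block (edgeR), where 0.0234% of tested genes passed. At an unadjusted p under 0.05 there was 1, Aldoa, beside 1148 of the 12805 tested genes. DESeq2 called 0 of the 10 and 2.34% of tested genes. With the block 1 gene, Aldoa, passed and was lower, beside 15.2% of tested genes (8.22% higher and 7.01% lower). The polysome calls changed with the replicates used. With the block and without replicate 2, 4 of the 10 genes passed in edgeR and all 4 were lower, where 39.1% of all tested genes passed: Aldoa at -0.41 (adjusted p = 7.53e-05), Pgk1 at -0.31 (adjusted p = 0.00133), Eno1 at -0.30 (adjusted p = 0.0026) and Hk2 at -0.30 (adjusted p = 0.00221). Without any one of the other replicates 0 passed, and the adjusted p of Aldoa was 0.200 without replicate 1, 0.205 without replicate 3 and 0.123 without replicate 4 (edgeR). In these fits 7.2%, 9.44% and 6.85% of tested genes passed, in the same order.

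Hk2 had 225.1, 340.7, 159.7 and 171.6 CPM in control polysomes and 167.9, 494.7, 127.1 and 155.7 CPM in RAM siRNA polysomes. Replicate 2 was the highest library of each group, and in that replicate alone the RAM siRNA library was above the control library. The log2 fold change of Hk2 was 0.08 (SE 0.44) over all libraries and -0.58 without the RAM siRNA library of replicate 2. Eno1 had 472.4, 437.7, 438.3 and 415.5 CPM in control and 362.0, 504.3, 343.8 and 370.7 CPM in RAM siRNA polysomes, where replicate 2 was again the library above its control. Slc2a1 ranged from 716.0 to 949.2 CPM in control and from 638.9 to 1244 CPM in RAM siRNA polysomes, and Pkm from 787.8 to 978.9 and from 735.3 to 1201 CPM. For both genes the top of the wider range was the RAM siRNA library of replicate 2. The 9 ESC markers summed to 6840, 4319, 7538 and 6726 CPM in RAM siRNA polysomes, with replicate 2 the lowest, and to 6134 to 7758 CPM in control polysomes. The part of this library in the polysome results was not tested. Gapdh had a log2 fold change of -0.15 (SE 0.13) with the block and was lower in all 4 pairs, as 20.2% of tested genes were, by less than 0.01 in replicate 2. Gpi1, Tpi1 and Ldha had log2 fold changes of -0.02, -0.02 and -0.02 without the block, each smaller than its SE of 0.19, 0.25 and 0.17.

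**Figure D2:**
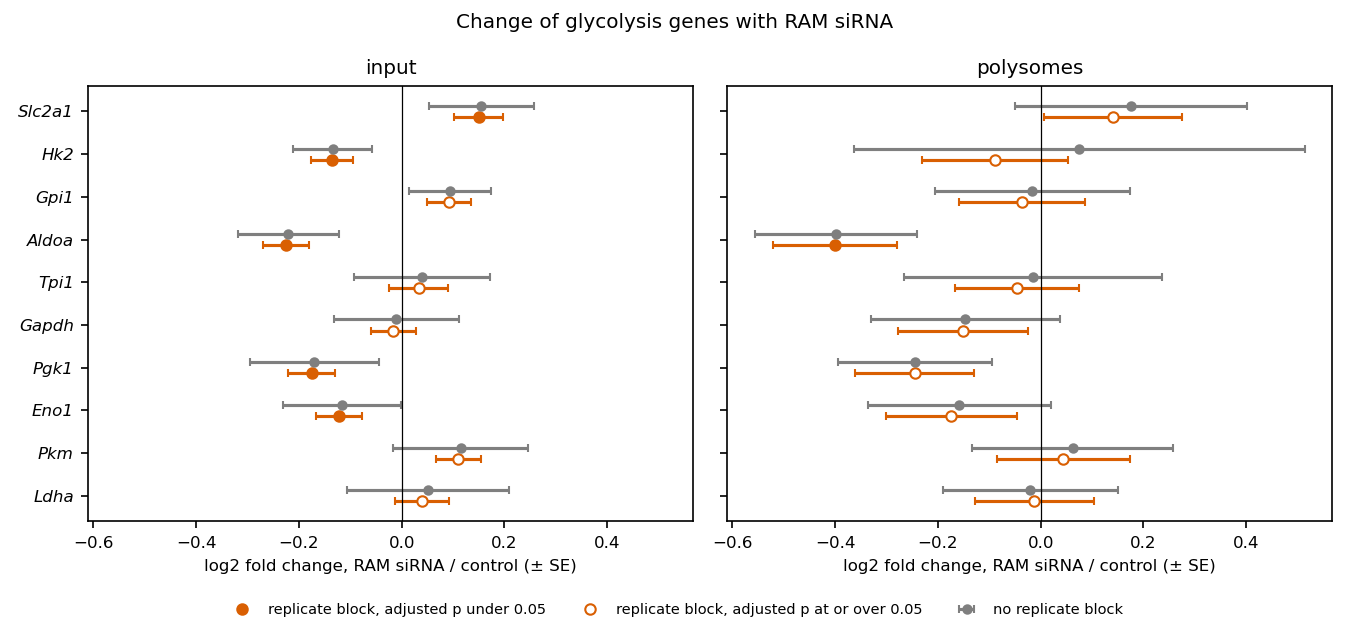
Log2 fold change of RAM siRNA over control (± SE, 4 against 4 libraries) of the 10 glycolysis genes in input and in polysomes, without a replicate block (gray) and with it (orange, filled where the adjusted p was under 0.05). With the block, 5 genes passed in input and Aldoa alone in polysomes, and the polysome estimates had larger errors than the input estimates.

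Polysome loading was taken as the ratio of polysome to input, and its change as the RAM siRNA ratio over the control ratio in 1 fit of all 16 libraries. No change of loading was detected for any of the 10 genes. The log2 changes lay between -0.18 for Aldoa (SE 0.18) and 0.21 for Hk2 (SE 0.48). With edgeR 0 of the 10 genes passed and 0 had an unadjusted p under 0.05. In all tested genes 0 passed as well (0%), with 100 at an unadjusted p under 0.05. The replicate block (0% of tested genes), a block within each fraction (0.0156% of tested genes) and DESeq2 (0.00781% of tested genes) also called 0 of the 10. The SEs of the 10 genes ranged from 0.18 to 0.48 on the log2 scale. With these SEs and the adjustment over all tested genes, changes of the 10 genes larger than their SEs could also go undetected. In the same fit no tested gene passed, with log2 changes from -2.24 to 1.05 over genes of all levels. Since each library is scaled to its own total, a shift of loading shared by all mRNAs cannot be seen in these ratios.

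In control cells, transcripts of 9 of the 10 genes were more abundant in polysomes than in input and Hk2 was less abundant. All 10 passed (edgeR, 9 higher and 1 lower), where 67.4% of all tested genes passed, 34.4% higher and 33% lower, and all 10 passed with the block too (72.6% of tested genes). The median log2 ratio of the 10 genes was 1.06, and that of all tested genes 0.03. The groups did not overlap for any of the 10 genes, as was so for 61% of all tested genes. When libraries were scaled by their total alone, the median of all genes moved to -0.09 and that of the 10 genes to 0.93. Input and polysome RNA were purified by different methods, so fraction and purification cannot be told apart in these ratios.

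The highest ratios of polysome to input in control cells were those of 4 genes of the middle and end of the pathway. Aldoa, Tpi1, Ldha and Gapdh had fold differences of 2.61, 2.61, 2.60 and 2.59, which placed them above 97.8%, 97.8%, 97.7% and 97.6% of tested genes. Their log2 ratios were 1.38 (SE 0.12), 1.38 (SE 0.16), 1.38 (SE 0.16) and 1.37 (SE 0.15). For Gapdh this was a rise from 520.9, 504.9, 500.7 and 652.2 CPM in input to 1468, 1226, 1348 and 1600 CPM in polysomes, and for Tpi1 a rise from 38.9, 44.0, 45.6 and 54.4 CPM to 99.2, 99.7, 129.3 and 149.1 CPM. Genes at very different levels thus had nearly the same ratio. Pgk1 at 2.16-fold, Slc2a1 at 2.01-fold, Eno1 at 1.96-fold, Pkm at 1.66-fold and Gpi1 at 1.41-fold came next, with adjusted p-values from 1.53e-05 for Pgk1 to 0.00252 for Gpi1 (edgeR). Hk2 stood apart at 0.459-fold, above 14.1% of tested genes, with a log2 ratio of -1.12 (SE 0.21, adjusted p = 0.000633, edgeR), and all 4 pairs were lower by 0.61 to 1.58. Per kb of transcript, Hk2 was therefore the sixth of the 10 genes in control input and the last in control polysomes, at 40.7 ± 15.0 CPM per kb, where its libraries overlapped those of Tpi1 at 74.2 ± 15.1.

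In RAM siRNA cells the same ratios were 2.31-fold for Aldoa, 2.51-fold for Tpi1, 2.47-fold for Ldha and 2.36-fold for Gapdh. Pgk1 had 2.05-fold, Slc2a1 2.04-fold, Eno1 1.91-fold, Pkm 1.60-fold, Gpi1 1.31-fold and Hk2 0.531-fold. Of the 10 genes, 8 passed and were higher (edgeR), beside 53.3% of all tested genes, 27.1% higher and 26.2% lower. With the block 9 passed, 8 higher and 1 lower, beside 59.2% of tested genes (28.7% higher and 30.5% lower). Gpi1 had a log2 ratio of 0.39 (SE 0.19, adjusted p = 0.114, and 0.126 with the block, edgeR). Hk2 had -0.91 (SE 0.39, adjusted p = 0.0677, edgeR), which passed with the block (-1.15, SE 0.30, adjusted p = 0.0106), and in replicate 2 its polysome and input libraries were nearly equal at 494.7 and 489.2 CPM. Without replicate 2, Hk2 was at -1.52 (adjusted p = 4.27e-05, edgeR). Pkm passed with all replicates (log2 ratio 0.68, adjusted p = 0.0233) and did not without replicate 1 (adjusted p = 0.130), replicate 2 (0.0701) or replicate 3 (0.0591, edgeR). The 2 sets of ratios do not show a difference between the siRNAs, which only the change of loading above tested.

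**Figure D3:**
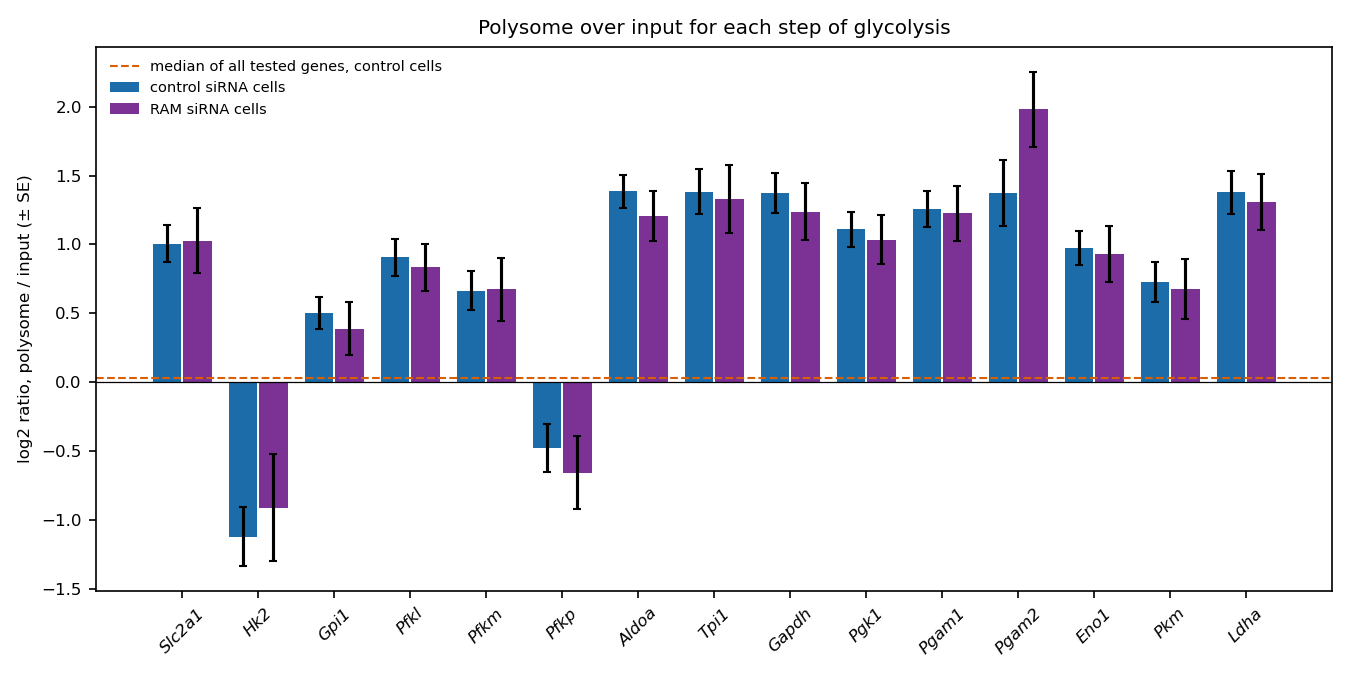
Log2 ratio of polysome to input (± SE, 4 against 4 libraries) for each gene of glycolysis from glucose uptake to lactate, in control and RAM siRNA cells, with the median of all tested genes in control cells as a dashed line at 0.03. Hk2 at -1.12 and Pfkp at -0.48 in control cells lay below the line, and the other 13 genes lay above it.

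The ratio of polysome to input went with transcript length across genes. Among the 12125 tested genes with a coding transcript model, the median log2 ratio in control cells was 0.37 for transcripts of up to 1500 bases, 0.56 from there to 2500 bases, 0.18 to 3500 bases and -0.14 to 5000 bases. It was -0.63 for longer transcripts. Of the 10 genes, Gapdh with 1420 bases is in the first group, and Aldoa (1511), Tpi1 (1607), Ldha (1766), Pgk1 (1825), Eno1 (2027) and Pkm (2432) are in the second. Gpi1 (2884) and Slc2a1 (3260) are in the third and Hk2 (5513) is in the last. All 7 genes of the first 2 groups lay above the median of their group, as did Gpi1 and Slc2a1, and Hk2 lay below its own. Slc2a1 at 1.01 was in a group where 7.67% of genes reached a log2 ratio of 1. The part of transcript length in these ratios was not tested, nor was that of the different RNA purification of input and polysomes.

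**Figure D4:**
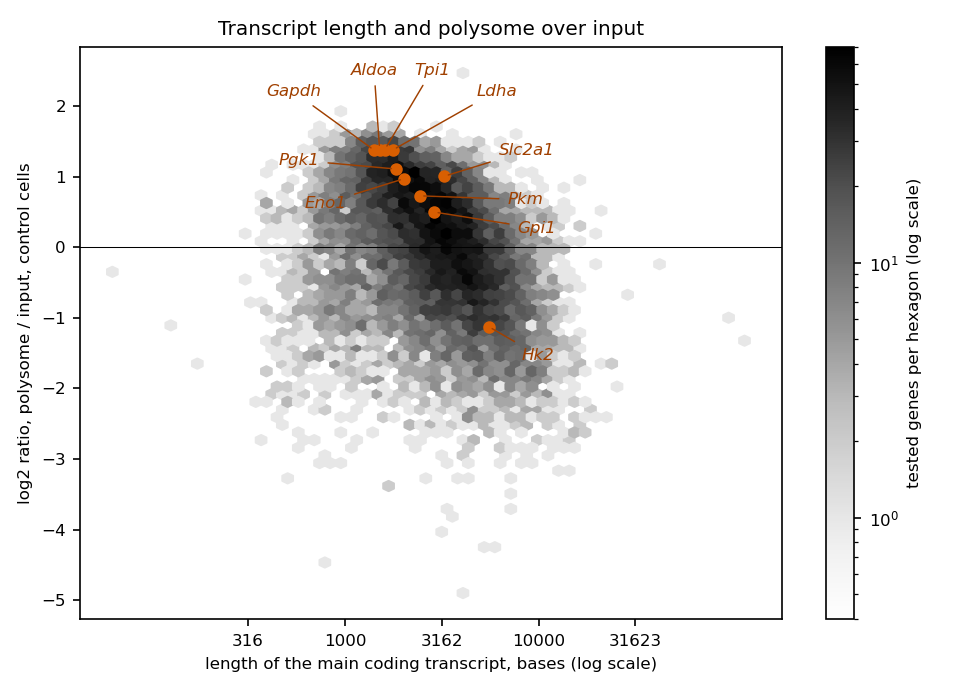
Log2 ratio of polysome to input in control cells (vertical axis) against the length of the main coding transcript (bases, log scale) for 12125 tested genes, shaded by the number of genes in each hexagon, with the 10 glycolysis genes in orange. The short transcripts Gapdh, Aldoa, Tpi1 and Ldha lay together near a log2 ratio of 1.4 and the long Hk2 transcript at -1.12.

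The other 5 genes of the pathway encode phosphofructokinase, its committed step (Pfkl, Pfkm and Pfkp), and phosphoglycerate mutase (Pgam1 and Pgam2). In input 0 of the 5 passed without the block (1 at an unadjusted p under 0.05, edgeR) and 3 passed with it, where 12.9% and 39.4% of all tested genes passed. Pfkl rose (log2 fold change 0.18, SE 0.05, adjusted p = 0.00987), while Pgam1 fell by 0.13 (adjusted p = 0.0333) and Pgam2 fell by 0.66 (adjusted p = 0.0114, edgeR). With the block Pfkl and Pgam2 no longer passed without replicate 3 (adjusted p = 0.0803 and 0.0581), and Pgam1 did not without replicate 1, 2 or 3 (adjusted p = 0.173, 0.172 and 0.0643, edgeR). Pgam2 was a rare transcript of 1.45 to 2.57 CPM in control and 0.870 to 1.56 CPM in RAM siRNA input. Pfkm (0.14) and Pfkp (-0.06) did not pass in either fit. In polysomes none of the 5 passed with or without the block, where 15.2% and 0.0234% of all tested genes passed. In control cells Pfkl, Pfkm, Pgam1 and Pgam2 were higher in polysomes than in input, by 1.87-, 1.59-, 2.39- and 2.59-fold, where 34.4% of all tested genes were higher and 33% lower. Pfkp, whose level in control input of 91.9 ± 5.28 CPM per kb was the highest of the 3 phosphofructokinase genes, was lower at 0.717-fold (log2 ratio -0.48, SE 0.18, adjusted p = 0.0296, edgeR). The adjusted p of Pfkp was 0.0882 without replicate 1, 0.0636 without replicate 3 and 0.0930 without replicate 4 (edgeR).

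Of 16 genes for isozymes and copies of the enzymes, 8 passed the filter. Adpgk, an ADP-dependent glucokinase, had 171.3, 172.9, 191.1 and 161.1 CPM in control and 219.3, 211.1, 236.4 and 184.6 CPM in RAM siRNA input, and rose by 0.29 on the log2 scale (SE 0.09, adjusted p = 0.0465, edgeR). It was higher in 4 of 4 pairs, and the groups overlapped through replicate 4. Without the block Adpgk no longer passed when replicate 1, 2 or 3 was left out (adjusted p = 0.273, 0.208 and 0.0705, edgeR), and it passed with the block (adjusted p = 1.87e-05). With the block 2 of the 8 were higher (Slc2a3 and Adpgk) and 2 lower (Eno1b and Ldhc), beside 20.6% and 18.7% of all tested genes. Slc2a3, the GLUT3 glucose transporter, was the most abundant of the 8 at 1412 ± 179.0 CPM (SD, n = 4) in input of control cells, against 1642 ± 248.9 CPM (n = 4) after RAM siRNA, with a log2 fold change of 0.21 (adjusted p = 0.00112 with the block and 0.273 without, edgeR). Ldhc, a testis form of lactate dehydrogenase, had 4.81 ± 0.808 and 3.76 ± 1.44 CPM and a log2 fold change of -0.37 with the block (adjusted p = 0.0468 with it and 0.401 without, edgeR). Hk1, Aldoc, Eno3 and Ldhb did not pass in either fit, with log2 fold changes of -0.01, 0.45, -0.07 and -0.07. In control cells 6 of the 8 were higher in polysomes than in input, beside 34.4% of all tested genes. Aldoc, Eno3, Ldhb, Ldhc, Adpgk and Eno1b had log2 ratios of 1.27, 1.10, 1.49, 1.45, 0.66 and 1.05, while Slc2a3 (0.28) and Hk1 (-0.14) did not pass. Eno1b, a copy of Eno1 whose coding sequence of 1302 bases differs from it at 8 positions (99.4% identity), reached 17.6% of the mean CPM of Eno1. Its log2 fold change with the block was -0.14 (adjusted p = 0.0431, edgeR), close to that of Eno1, and reads shared by the 2 genes could not be told apart. The other 11 copies found by symbol each had a mean under 1 CPM.

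Of 13 genes that handle pyruvate and lactate, 1 was higher and 1 lower in input without the block, where 12.9% of all tested genes passed, and 5 were higher and 1 lower with it, where 39.4% passed. The median log2 fold change of the list was 0.10. Mpc1, a subunit of the carrier that takes pyruvate into mitochondria, had 27.44, 25.42, 25.79 and 23.25 CPM in control and 13.05, 14.03, 13.58 and 11.99 CPM in RAM siRNA input. The groups were far apart, and Mpc1 fell to 0.517-fold (log2 fold change -0.95, SE 0.09, adjusted p = 6.92e-05, edgeR). In polysomes its log2 fold change was -1.24 (SE 0.26, adjusted p = 0.102) and passed with the block (adjusted p = 1.49e-05, edgeR). Slc16a3, a lactate exporter, had 11.0, 12.03, 18.78 and 23.36 CPM in control and 26.59, 18.9, 36.92 and 27.84 CPM in RAM siRNA input. All 4 pairs were higher, the groups overlapped, and the log2 fold change was 0.76 (SE 0.23, adjusted p = 0.0496, edgeR). Without the block it did not pass when replicate 1, 2 or 3 was left out (adjusted p = 0.242, 0.0940 and 0.127, edgeR), nor in DESeq2 (0.0943), and with the block it did (adjusted p = 5.37e-06). In polysomes it was 0.78 (adjusted p = 0.389, and 0.000948 with the block, edgeR).

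Of the 10 tested genes of fructose 2,6-bisphosphate and gluconeogenesis, 1 passed in input without the block and 2 with it. The shares of all tested genes were 12.9% and 39.4%. The gene that passed without the block was Pcx, which encodes the pyruvate carboxylase that makes oxaloacetate from pyruvate. It had 61.5, 61.7, 68.9 and 58.2 CPM in control and 100.8, 99.6, 105.2 and 79.8 CPM in RAM siRNA input. It rose by 0.62 (SE 0.09, adjusted p = 0.00118, edgeR) with no overlap between the groups, where 18% of all tested genes had groups that did not overlap in input. In polysomes the library of RAM siRNA replicate 2 had 242.6 CPM of Pcx against 45.1 to 76.4 CPM in the others, and the log2 fold change was 0.92 (adjusted p = 0.714) without and 0.68 (adjusted p = 0.00412) with the block (edgeR). Of the 8 genes of the pentose phosphate pathway, 0 passed without the block and 4 with it, all higher, where 20.6% of all tested genes were higher with the block. The gene with the smallest p among them was Tkt (transketolase, 0.21, adjusted p = 0.0592, and 0.000417 with the block, edgeR). Of the 5 genes of serine synthesis, 0 passed without the block and 1, Shmt2, with it (0.19, adjusted p = 0.00104, edgeR). The shares of all tested genes were again 12.9% and 39.4%.

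The hypoxia factors and HIF targets outside glycolysis showed no common direction. Of 13 genes, 11 were tested, 0 passed without the block (3 at an unadjusted p under 0.05, edgeR), and with it 2 were higher and 4 lower. P4ha1, a collagen prolyl hydroxylase, had the smallest p (0.30, adjusted p = 0.0610, and 8.31e-05 with the block, edgeR). Over all 70 tested genes of glycolysis and the adjoining lists, 3 were higher and 1 lower in input without the block, and 18 higher and 13 lower with it. The shares of all tested genes were 7.14% higher and 5.81% lower without the block and 20.6% and 18.7% with it. The loading test called 0 of the 70 (0 at an unadjusted p under 0.05 without the block, and 1 with it).

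**Figure D5:**
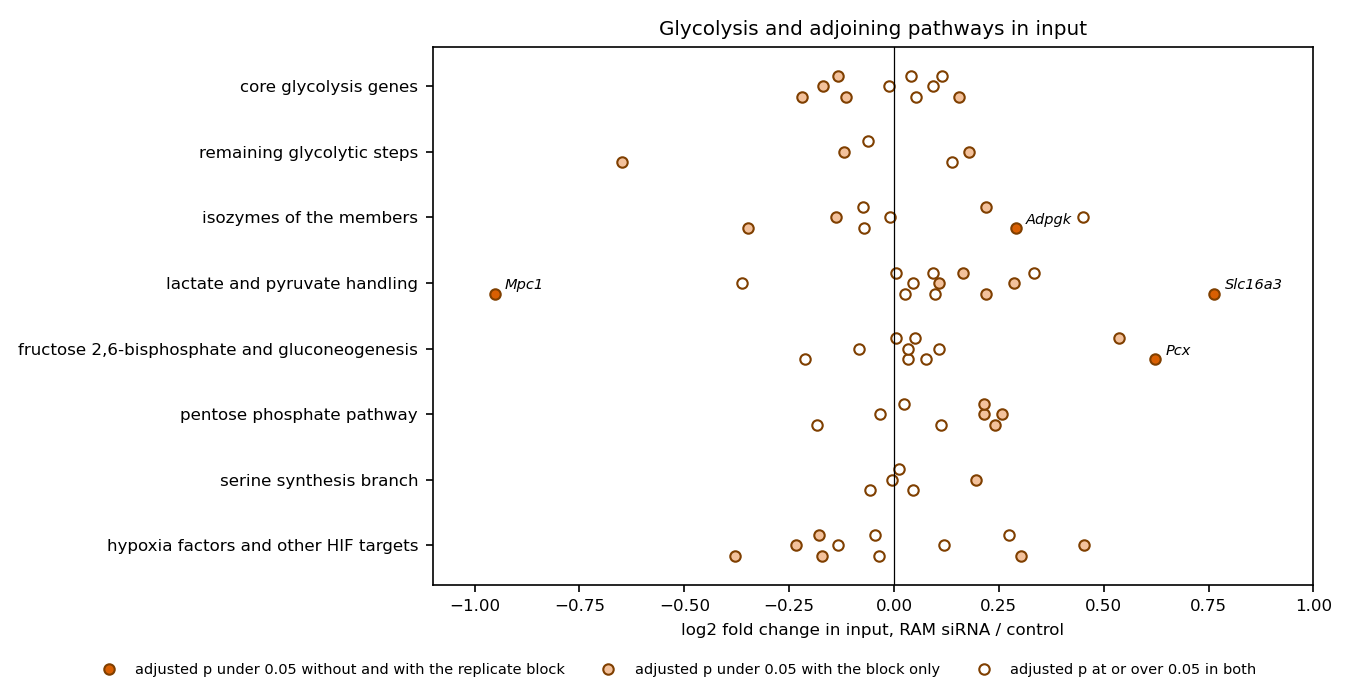
Log2 fold change in input (RAM siRNA over control, without the block) of each tested gene of glycolysis and 7 adjoining lists, 1 point per gene, filled by the fits it passed. Mpc1 at -0.95, Slc16a3 at 0.76, Pcx at 0.62 and Adpgk at 0.29 passed in both fits, and the 10 core genes lay between -0.22 and 0.16.

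Among the 10 genes, the course over the 16 libraries was most like their common course for Eno1, with a root mean square difference of 0.11 on the log2 scale after each gene was set to its own mean. For Hk2 this difference was 1.08, the largest of the 10, and for the other 8 it lay between 0.14 and 0.39. The 5 tested genes outside the pathway whose course was closest to the mean of the 10 were Pgm1, a phosphoglucomutase (0.08), the kinase gene Rps6ka6 (0.09), Mycn (0.09), Ddx54 (0.09) and Rbmxl2 (0.09), where the median over other tested genes was 0.55. Genes compared this way share their libraries, depth and fractions. The ratio of polysome to input of these 5 genes in control cells lay between 1.67-fold for Mycn and 1.91-fold for Pgm1.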

How the data were processed

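Input RNA was purified with Trizol, and polysome RNA with phenol and chloroform followed by precipitation with LiCl. RNA was sequenced from 4 biological replicates of each of 4 groups with a ribosome-depleted, stranded total RNA kit. The authors aligned reads to mm10 with STAR (2.5.1b) and counted them per gene with HTSeq, and the deposited values are these raw counts. The annotation release and the counting options for strand and multiply mapping reads are not given in the sources used here. Of 46983 gene IDs, 46488 matched a symbol.

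A gene was tested if 10 or more of the 16 libraries had 1 CPM or over (12805 genes). Library sizes were scaled by TMM over all libraries, and edgeR (4.0.16, R 4.3.3) quasi-likelihood fits compared RAM siRNA with control in input and in polysomes, polysome with input in each siRNA, and the 2 ratios through an interaction term. Adjusted p-values are Benjamini-Hochberg values over all tested genes, with a threshold of 0.05. The scripts were tested on simulated data. Depth was 16647523 to 20147833 counts per library.

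Replicate numbers come from the labels. Deviations from group means, over the 9140 genes averaging 10 CPM or more, correlated between same-numbered libraries at 0.400 to 0.797 in input and 0.625 to 0.944 in polysomes, so fits with the replicate number as a block were run as well. Other alternatives were DESeq2 (1.42.0), other scalings, no filter, subsets of replicates and each replicate left out.

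The 10 genes and the pathway and marker lists were chosen with earlier results of these data known. Named genes were these 10, Ramac, the remaining glycolytic steps, up to 3 genes of each adjoining list that passed in input or polysomes without the block (in lists with none, the one with the smallest input p), isozymes and copies averaging 1 CPM or more, and the 5 genes most like the mean of the 10. Coordinates and transcript lengths came from GENCODE M21, promoter sequences from RefSeq (GRCm38.p6).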

Additional observations from a re-analysis of the deposited data

Results flagged for a closer look

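The 10 genes in 4 groups gave 40 sets of 4 libraries. In 5 of them the gap of the highest library to the next was over Dixon's 95% critical share of the range. Chance gives about 1 in 20 sets, but the 10 genes share the same 16 libraries. The sets are therefore not independent, and whether 5 is more than chance gives was not tested. In polysome RAM siRNA, replicate 2 stood out for Hk2, with 494.7 CPM against 127.1 to 167.9 CPM in the other libraries, and for Eno1, with 504.3 CPM against 343.8 to 370.7 CPM. In input, replicate 4 stood out for Gapdh in both groups, with 652.2 CPM in control (others 500.7 to 520.9 CPM) and 676.8 CPM in RAM siRNA (others 479.2 to 510.5 CPM), and for Pkm in RAM siRNA, with 760.1 CPM against 531.6 to 551.2 CPM.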

How the results depend on the processing

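The calls among the 10 glycolysis genes between the siRNAs depended on the replicate block, which takes same-numbered libraries as paired. It took the count called from 0 to 5 in input and from 0 to 1 in polysomes, and the count over all tested genes from 1658 to 5039 in input and from 3 to 1949 in polysomes. Without the block, replicates 1 and 2 alone gave 2642 genes in input, replicates 3 and 4 alone 0, a threshold of 0.01 gave 626, and leaving out a replicate or library gave 345 to 2515. In polysomes DESeq2 gave 300 genes, no filter on low counts 11, a threshold of 0.01 gave 1, either pair of replicates 0, and leaving out a replicate or library 0 to 47. With these depths and replicates, the SE of a log2 fold change of the 10 genes was 0.08 to 0.16 in input, 0.15 to 0.44 in polysomes and 0.18 to 0.48 for the change of loading (without the block). With the block, 3, 5, 3 and 5 genes were called in input without replicates 1, 2, 3 and 4 in turn, and 0, 4, 0 and 0 in polysomes. The shares of all tested genes in these fits were 28.5%, 31.6%, 32.8% and 38.6% in input and 7.2%, 39.1%, 9.44% and 6.85% in polysomes. Without the block, input had 1 call with no filter on low counts and 1 in replicates 1 and 2 alone, both Aldoa. These fits called 2206 and 2642 of all genes. Fits without the block that left out a replicate or library called 0 to 1 of the 10 genes in input, 0 in polysomes, 0 for the change of loading, 10 for polysome against input in control cells and 7 to 8 in RAM siRNA cells. For polysome against input, they called 7386 to 8461 of all tested genes in control cells and 4048 to 7832 in RAM siRNA cells.

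Some directions turned. Of the values listed here, Hk2 in polysomes with the block and without replicate 2 passed (adjusted p = 0.00221, edgeR). In input, Tpi1 and Ldha were at -0.017 and -0.0042 with no filter and at -0.069 and -0.053 in replicates 1 and 2 alone, and Gapdh was at 0.042 in replicates 3 and 4 alone. With the block, Gapdh was at 0.019 without replicate 1, Tpi1 at -0.016 without replicate 3 and Pfkp at 0.0059 without replicate 4. Over the fits without the block that left out a replicate or library, Gapdh ranged from -0.137 to 0.087, Ldha from -0.077 to 0.169, Pfkp from -0.102 to 0.0043, Pkm from -0.024 to 0.225 and Tpi1 from -0.070 to 0.134.

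In polysomes, Hk2 was at -0.089 with the block, and with the block at -0.298, -0.0081 and -0.072 without replicates 2, 3 and 4. Gpi1, Tpi1 and Ldha were at 0.017, 0.018 and 0.012 in DESeq2, at 0.0081, 0.0054 and 0.0016 with RLE scaling and at 0.029, 0.038 and 0.027 with TMM over the libraries compared, an alternative chosen after seeing the data, as was leaving out replicates under the block. Tpi1 was at 0.0042 with no filter. Replicates 1 and 2 alone gave 0.044 for Gpi1 and 0.074 for Ldha, and replicates 3 and 4 alone gave -0.052 for Slc2a1, -0.229 for Hk2, 0.082 for Tpi1 and -0.011 for Pkm. With the block, Gpi1 was at 0.027 without replicate 1, Tpi1 at 0.071 and Pkm at -0.060 without replicate 2, Gpi1 at 0.0058 and Ldha at 0.013 without replicate 3, and Ldha at 0.020 without replicate 4. The fits without the block that left out a replicate or library gave Gpi1 -0.176 to 0.068, Hk2 -0.578 to 0.350, Ldha -0.084 to 0.043, Pkm -0.069 to 0.168 and Tpi1 -0.145 to 0.148.

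For the change of loading, no filter gave 0.022 for Tpi1, 0.029 for Eno1, 0.019 for Pkm and 0.00012 for Ldha. Replicates 1 and 2 alone gave 0.013 for Gpi1, 0.121 for Eno1, 0.080 for Pkm and 0.128 for Ldha, and replicates 3 and 4 alone -0.176 for Slc2a1 and -0.076 for Hk2. Slc2a1 was at -0.0086 with a block within each fraction and at -0.0098 with a factor for each culture. With the block, Slc2a1 and Hk2 were at -0.151 and -0.149 without replicate 2, Eno1, Pkm and Ldha at 0.039, 0.0045 and 0.013 without replicate 3, and Ldha at 0.010 without replicate 4. Without the block, the fits that left out a replicate gave Eno1 -0.192 to 0.046, Hk2 -0.154 to 0.341, Pkm -0.206 to 0.0083 and Slc2a1 -0.150 to 0.089. The cause of these turns was not tested. For polysome against input no value turned under any alternative run, and in replicates 3 and 4 alone Gpi1 (adjusted p = 0.134) and Pkm (adjusted p = 0.0612) no longer passed in control cells (edgeR), nor did Pfkm there (adjusted p = 0.0867). Pfkp in control cells did not pass in 6 of 17 alternatives: without replicates 1, 3 and 4 in turn, in replicates 1 and 2 alone (adjusted p = 0.0570), with the block and without replicate 3 (adjusted p = 0.0563), and at a threshold of 0.01 (edgeR).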
